A study of Saccharomyces cerevisiae with 4 samples.

Results

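The glycogen metabolism genes are 10 genes of budding yeast (Saccharomyces cerevisiae), chosen by name from the product column of the deposited table: GLG1, GLG2, GSY1, GSY2, GLC3, GPH1, GDB1, GAC1, PIG1 and PIG2. All 10 were found among the 6697 genes of the table, and all 10 passed the filter on low values, which kept the 6503 genes whose mean over the libraries reached 1. They were measured by RNA sequencing in 2 groups of 2 libraries. One group, WT, is labelled wild type, and the other, 9Myc-Swd2, carries a tag of 9 Myc epitopes at the N terminus of Swd2, a WD-repeat protein shared by the histone H3 lysine 4 methylation complex COMPASS and by the cleavage and polyadenylation factor. The design text calls the strains isogenic. All cultures grew in YPD, a rich medium with glucose, at 30 °C to an OD600 of 1.0, with no other treatment named. The labels do not give the promoter of the tagged allele, the mating type or whether the strain is a single clone.

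Glycogen is a branched glucose polymer that yeast stores when growth slows or a nutrient runs short. Glycogenin primes the chain, glycogen synthase extends it from UDP-glucose, and a branching enzyme adds side chains. Phosphorylase and a debranching enzyme take it apart again. Synthase is inactivated by phosphorylation and activated by the phosphatase Glc7, which targeting subunits bring to it. Many of these genes are induced by stress through Msn2 and Msn4, which bind the stress response element AGGGG, and are repressed by protein kinase A. Neither glycogen nor enzyme activity was measured here.

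The libraries held between 7849193 and 8388090 reads assigned to genes. SWD2, the tagged gene, was at 335 and 351 normalized read counts in WT and at 1080.4 and 969 in 9Myc-Swd2. The tag itself cannot be seen in these values. SWD2 lies on chromosome XI, whose genes were higher as a whole: 310 of the 342 tested there rose (90.6%), with a median log2 fold change of 0.90 over its 319 genes of at least 5 CPM. That touches GLG1, the only glycogen gene on this chromosome, so values are also given without it. Separate cultures are not named for the libraries within a group, and the p-values therefore reflect the spread between these samples alone, which could be technical. In bulk RNA, a change in the share of cells in a state and a change in RNA per cell cannot be told apart.

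Of the 10 genes, 6 rose in the tagged strain, 1 fell and 3 did not pass (limma-trend on log2(value + 1), Benjamini-Hochberg adjusted p under 0.05). Of all genes tested 43.7% passed, 22.3% with a rise and 21.4% with a fall, and among genes with a mean at least that of the lowest member 26.5% rose. Off chromosome XI, 5 of the 9 members rose and 1 fell, where 18.5% of such genes rose and 22.6% fell. As a median, the log2 fold change was 0.35 over the 10 genes and 0.23 over the 9, against 0.00 for all genes tested and -0.02 for genes off chromosome XI. In all 10 the libraries of the 2 groups did not overlap, with both tagged libraries higher in 8 and lower in 2. Such separation was common: 36% of the tested genes had both tagged libraries above both WT libraries, and 35.6% had both below.

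**Figure D1:**
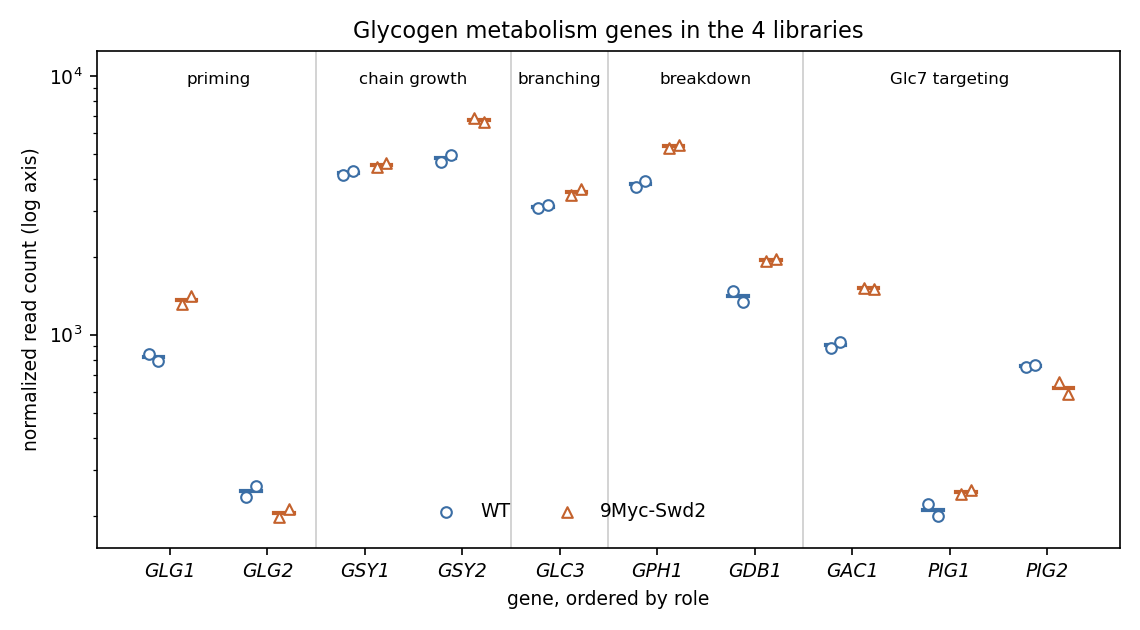
Normalized read counts (log axis) of the 10 glycogen metabolism genes, ordered by role, in each WT library (circles) and each 9Myc-Swd2 library (triangles), with a line at each group's mean of 2 libraries. GSY2, GPH1, GDB1, GAC1 and GLG1 stand clearly higher in 9Myc-Swd2, whereas GLG2 and PIG2 stand lower.

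Together the 10 genes took 0.251% and 0.255% of the reads of the WT libraries and 0.310% and 0.313% of those of the 9Myc-Swd2 libraries. Per kilobase of coding length, the synthase genes stood at the top in both groups. In WT the order of the mean normalized read count per kilobase was GSY2 (2269), GSY1 (1985), GLC3 (1477), GPH1 (1407), PIG2 (467), GLG1 (442), GAC1 (383), GDB1 (305), GLG2 (217) and PIG1 (108). No 2 neighbours in this order overlapped between their libraries, although GLC3 and GPH1 came close, at no less than 1462 and no more than 1444. In 9Myc-Swd2 the means were 3184 for GSY2, 2129 for GSY1, 1970.1 for GPH1, 1685 for GLC3, 736 for GLG1, 634 for GAC1, 419.8 for GDB1, 385 for PIG2, 179 for GLG2 and 127 for PIG1. GPH1 thus passed above GLC3, and PIG2 went from the fifth place to the eighth.

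Of the synthase paralogs, GSY2 rose and GSY1 did not pass. GSY2 (YLR258W, chromosome XII, 660716 to 662833, plus strand), which encodes the main glycogen synthase, was at 4655 and 4956 normalized read counts in WT and at 6845 and 6641 in 9Myc-Swd2. Both tagged libraries lay above both WT libraries, and the mean rose 1.40-fold, from 4805 ± 213 to 6743 ± 144 (SD, n = 2). The log2 fold change was 0.49 ± 0.07 (SE), and the adjusted p by limma-trend was 3.03e-05. GSY1 (YFR015C, chromosome VI, 174265 to 176391, minus strand), the second synthase gene, was at 4152 and 4293 in WT and at 4459.7 and 4599 in 9Myc-Swd2. Its groups did not overlap either, but the difference was small, at 0.10 ± 0.07 on the log2 scale, and did not pass (limma adjusted p = 0.250).

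The balance between the synthase genes was also read within each library, which needs no normalization between libraries. GSY2 made up 53.0% and 53.7% of the GSY1 and GSY2 reads per coding length in WT and 60.7% and 59.2% in 9Myc-Swd2. The mean share was higher by 6.59 percentage points in the tagged strain, and no library of one group reached into the range of the other. An exact two-sided permutation test gave p = 0.333, the smallest value that 2 against 2 libraries allow. Of the reads themselves, GSY2 held 52.9% in WT 1 (95% Wilson interval 51.8 to 53.9) and 53.6% in WT 2 (52.6 to 54.6). It held 60.5% in 9Myc-Swd2 1 (59.6 to 61.5) and 59.1% in 9Myc-Swd2 2 (58.2 to 60.0). These intervals cover counting error only. The paralogs are similar in sequence, and how the authors assigned reads that fit both is not stated; this holds for the paralogs HXK1 and HXK2 and PGM1 and PGM2 too.

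To show what stands before genes that moved differently, stretches that hold the stress response element AGGGG or its reverse complement CCCCT are printed for both synthase genes, the branching enzyme gene, the phosphorylase gene and PIG2. They were read 5′ to 3′ on the gene's strand from the RefSeq genome of build R64, the assembly that sacCer3 names, at chrVI:176712-176871 (GSY1, minus strand), chrXII:660326-660535 (GSY2, plus strand), chrV:132734-132914 (GLC3, plus strand), chrXVI:860936-860995 (GPH1, plus strand) and chrIX:270801-270840 (PIG2, plus strand). Capitals mark the element.
GSY1: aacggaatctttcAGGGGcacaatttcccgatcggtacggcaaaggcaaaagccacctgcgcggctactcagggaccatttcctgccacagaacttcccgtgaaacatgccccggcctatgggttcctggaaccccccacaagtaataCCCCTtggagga
GSY2: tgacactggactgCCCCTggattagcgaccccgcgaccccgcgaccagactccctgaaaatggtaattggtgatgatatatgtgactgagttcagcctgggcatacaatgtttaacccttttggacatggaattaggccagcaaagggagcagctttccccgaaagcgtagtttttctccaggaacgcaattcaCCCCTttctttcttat
GLC3: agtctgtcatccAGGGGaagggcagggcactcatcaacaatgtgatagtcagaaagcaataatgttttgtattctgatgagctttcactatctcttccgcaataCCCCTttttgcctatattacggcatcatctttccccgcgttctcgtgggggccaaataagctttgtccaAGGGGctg
GPH1: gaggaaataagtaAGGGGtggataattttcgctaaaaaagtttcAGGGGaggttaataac
PIG2: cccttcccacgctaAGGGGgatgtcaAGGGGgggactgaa

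Both synthase genes hold 2 matches within 500 bases of their starts: at 467 and 332 bases before the start in GSY1 and at 377 and 196 bases before it in GSY2. GPH1 has 2 matches, 357 and 326 bases before its start, and PIG2 has 2 as well, 346 and 334 bases before its start. GLC3 has 3, GLG2 has 2 and GDB1 has 1. In the window from 250 bases before to 50 after the start, 4 of the 10 genes (GSY2, GLC3, GDB1 and GLG2) held a match on either strand, as did 21.6% of all 6020 promoters. In the 500 bases before the start, a window chosen after seeing the data, 7 of the 10 held one, as did 34.0% of 6019 promoters; the other 3 are GLG1, GAC1 and PIG1. Whether a match has a part in the change of a gene was not tested. The element TAGGGAT, bound by Gis1, was found in the window from 250 before to 50 after the start of GLG1 alone (1.66% of all promoters), and TTCNNGAA, a core of heat shock elements, was found there in 0 of the 10 (12.8% of all promoters) but in 3 of the 10 within 500 bases before the start (21.1% of promoters). AGGGG and TAGGGAT share letters but did not overlap in these genes. A match is a description of the letters, not a site.

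Genes of breakdown rose by similar amounts. GPH1 (YPR160W, chromosome XVI, 861306 to 864014, plus strand) encodes glycogen phosphorylase, which releases glucose 1-phosphate from chain ends. It was at 3708 and 3912 normalized read counts in WT and at 5269.9 and 5404 in 9Myc-Swd2, with no overlap between the groups. That is a 1.40-fold rise, with a log2 fold change of 0.49 ± 0.07 (SE, limma adjusted p = 2.13e-05). GDB1 (YPR184W, chromosome XVI, 902044 to 906654, plus strand) encodes the debranching enzyme, which opens the branches that stop phosphorylase. It was at 1476 and 1339 in WT and at 1919 and 1952 in 9Myc-Swd2, again without overlap. Its log2 fold change was 0.46 ± 0.07 (SE, limma adjusted p = 4.27e-05). Per coding length, the ratio of GPH1 to GSY2 was 0.623 and 0.617 in WT and 0.602 and 0.636 in 9Myc-Swd2, so the groups overlapped in this ratio of breakdown to synthesis genes.

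GLC3 (YEL011W, chromosome V, 133120 to 135234, plus strand), the gene of the branching enzyme, changed less. It was at 3092 and 3155 in WT and at 3468 and 3659 in 9Myc-Swd2. The groups did not overlap, and the log2 fold change of 0.19 ± 0.07 (SE) passed by limma-trend (adjusted p = 0.0300). The authors' deposited table gives the same 0.19 with an adjusted p of 0.0588, which does not pass, and limma gave 0.188 without WT 1, 0.134 without WT 2 and 0.0986 without 9Myc-Swd2 2. Relative to GSY2, GLC3 stood at 0.665 and 0.637 per coding length in WT and at 0.507 and 0.552 in 9Myc-Swd2, lower in both tagged libraries.

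Glycogenin, the self-glucosylating primer, has 2 genes, and they lay on different sides. GLG1 (YKR058W, chromosome XI, 552770 to 554620, plus strand) was at 843 and 792 in WT and at 1310.0 and 1413 in 9Myc-Swd2. It rose 1.66-fold, with a log2 fold change of 0.73 ± 0.07 (SE, limma adjusted p = 3.12e-07), in both tagged libraries. Its log2 fold change lay 0.17 below the median log2 fold change of chromosome XI genes of at least 5 CPM, within their middle range of 0.70 to 1.11, and 93 of the 318 others changed by less. GLG2 (YJL137C, chromosome X, 154985 to 156127, minus strand) was at 237 and 259.5 in WT and at 197 and 213 in 9Myc-Swd2. Both tagged libraries were lower, but the log2 fold change of -0.28 ± 0.12 (SE) did not pass (limma adjusted p = 0.0627).

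GLG1 made up 68.7% and 65.3% of the glycogenin reads per coding length in WT and 80.4% in both tagged libraries. The shares did not overlap, and the mean was higher by 13.4 percentage points (exact two-sided permutation p = 0.333, the smallest value possible here). The part of the higher chromosome XI level in this shift was not tested. By read counts, GLG2 is the thinner of the pair, with 185 to 267 reads a library against 815 to 1402 for GLG1.

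**Figure D2:**
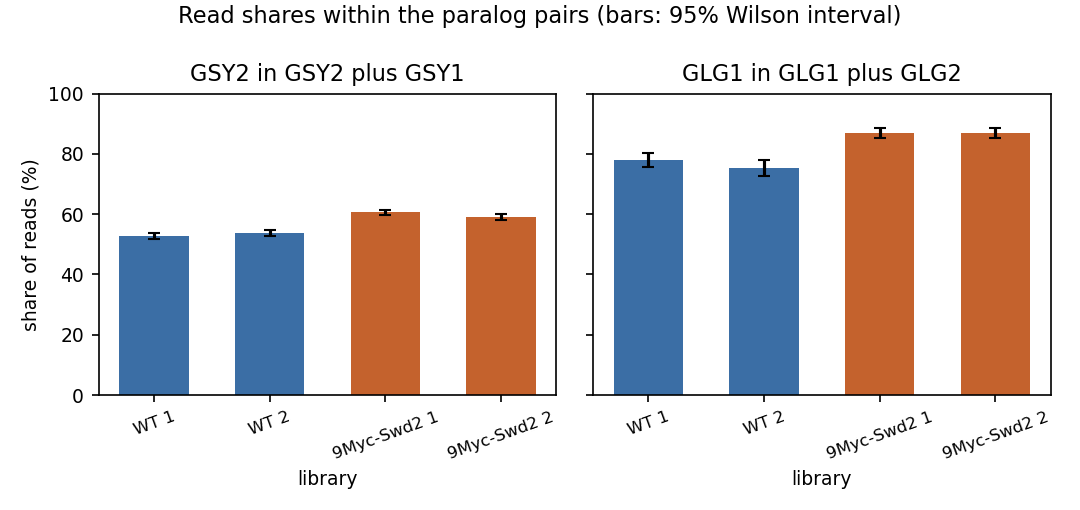
Share of reads (%) held by GSY2 within the synthase pair and by GLG1 within the glycogenin pair, in each library, not divided by coding length; bars start at 0 and error bars are 95% Wilson intervals of the counts. In both pairs the 2 tagged libraries stand above the 2 WT libraries, from 53.6% at most to 59.1% at least for GSY2.

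The genes of the Glc7 targeting subunits moved apart. GAC1 (YOR178C, chromosome XV, 667860 to 670241, minus strand) encodes the subunit through which Glc7 activates glycogen synthase. It was at 889 and 934 in WT and at 1516 and 1505 in 9Myc-Swd2, a 1.66-fold rise with little spread in either group. The log2 fold change was 0.73 ± 0.07 (SE, limma adjusted p = 1.68e-07), close to that of GLG1, although GAC1 lies off chromosome XI. PIG2 (YIL045W, chromosome IX, 271161 to 272777, plus strand), whose product binds Gsy2 and is thought to target Glc7 to it, fell from 749.9 and 761 to 655 and 591. Its log2 fold change of -0.28 ± 0.08 (SE) passed by limma-trend (adjusted p = 0.00905), but not in the authors' deposited table (adjusted p = 0.0564). Without 1 library its limma adjusted p was 0.0610 (WT 1), 0.0930 (WT 2) or 0.0528 (9Myc-Swd2 2).

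PIG1 (YLR273C, chromosome XII, 689083 to 691029, minus strand), a relative of GAC1, had the lowest level per coding length. It was at 221 and 199 in WT and at 241 and 252 in 9Myc-Swd2. The groups did not overlap, yet the log2 fold change of 0.23 ± 0.11 (SE) did not pass (limma adjusted p = 0.115). Per coding length GAC1 stood at 0.804 and 0.833 times the level of PIG2 in WT and at 1.57 and 1.73 times that level in 9Myc-Swd2. The order of these 2 genes was thus turned round in both tagged libraries.

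**Figure D3:**
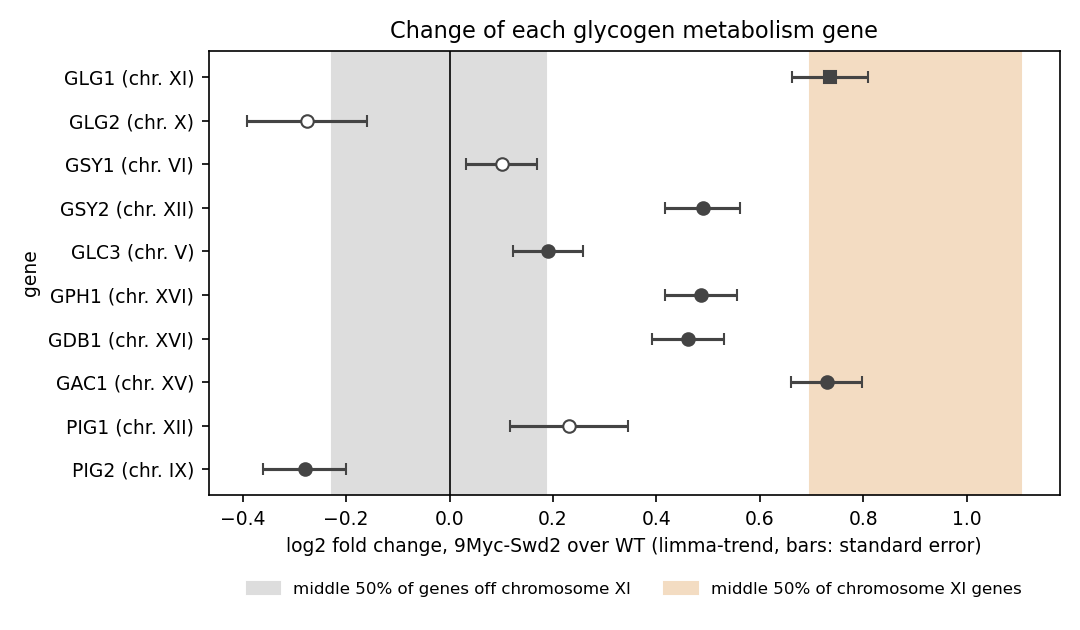
Log2 fold change of each glycogen metabolism gene, 9Myc-Swd2 over WT, with its standard error (limma-trend, 2 libraries a group); filled symbols passed the threshold, and the square marks the chromosome XI gene. The grey and tan bands hold the middle 50% of genes of at least 5 CPM off and on chromosome XI. GSY2, GPH1, GDB1, GAC1, PIG1 and, narrowly, GLC3 lie above the grey band, and GLG2 and PIG2 lie below it. GSY1 lies inside the grey band, and GLG1 lies inside the tan band.

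With the quasi-likelihood test of edgeR, run on recovered reads, the same 6 members were higher and the same 1 lower, where 44.3% of all genes passed, 22.9% higher and 21.3% lower. The authors' deposited table, which called 33.3% of the genes with an adjusted p (17.8% higher and 15.5% lower), gives GLG1, GSY2, GPH1, GDB1 and GAC1 as higher and leaves the other 5 uncalled. Its log2 fold changes were 0.74, 0.49, 0.49, 0.46 and 0.73 for these 5 genes.

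Of 12 further genes, of the phosphatase and other modifiers of glycogen, 3 rose, 4 fell and 5 did not pass, with a median log2 fold change of 0.04. All 12 lie off chromosome XI, where 18.5% of genes rose and 22.6% fell, so the counts lie near this background. GLC7, the catalytic subunit of the phosphatase itself, went from 4139 ± 144 to 3278 ± 57.8 (SD, n = 2), and its fold change on the log2 scale was -0.34 ± 0.07 (limma adjusted p = 0.000651). GLC8, a regulator of Glc7, fell from 2320.4 ± 7.40 to 1838 ± 105. GIP2, a putative Glc7 targeting subunit related to Pig2, fell from 416 ± 33.5 to 329.8 ± 8.78 by limma-trend, but its adjusted p was 0.175 without WT 1 and 0.0656 in the authors' deposited table. So GAC1 rose while the genes of Glc7 and Glc8 fell, and the fall of GIP2 was not called in each fit. This contrast is between single genes of a list near background and was not tested.

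SGA1, a glucoamylase gene of sporulating cells that breaks down glycogen in the vacuole, rose by 0.64 ± 0.11 on the log2 scale, from 185 ± 1.14 to 290.3 ± 25.6 (limma adjusted p = 0.000215). PCL7, a cyclin of the kinase Pho85, fell from 545 ± 16.5 to 436 ± 11.3, but did not pass without WT 1 (limma adjusted p = 0.0824). PSK2, a PAS kinase that phosphorylates UDP-glucose pyrophosphorylase and synthase, rose from 667 ± 5.13 to 779.9 ± 50.3 by limma-trend (adjusted p = 0.0282). It did not pass without WT 1, WT 2 or 9Myc-Swd2 2 (limma adjusted p from 0.135 to 0.152), nor, at an adjusted p of 0.127, in the authors' deposited table. The deposited table has 1 of these 12 genes higher and 3 lower. SGA1 is known as a sporulation gene, and the 7 sporulation markers summed to 929 and 947 normalized read counts in WT and 784 and 892 in 9Myc-Swd2. Of these markers, all off chromosome XI, 1 fell and 6 did not pass, beside 22.6% lower and 18.5% higher among all genes off this chromosome. Whether sporulating cells had a part in the rise of SGA1 was not tested.

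Of 7 genes that make the synthase substrate, from glucose phosphorylation to UDP-glucose, 5 rose and 2 fell, with a median log2 fold change of 0.43, beside 22.3% higher and 21.4% lower over all genes. Off chromosome XI, 3 of 5 rose and 2 fell, with a median of 0.31, beside 18.5% and 22.6%. The largest changes were those of PGM1, a phosphoglucomutase gene, with 1.03 ± 0.07 (limma adjusted p = 1.76e-09), and UGP1, the UDP-glucose pyrophosphorylase gene, with 0.99 ± 0.07. Both lie on chromosome XI, and their values are close to its median of 0.90. Off it, the hexokinase gene HXK1 rose from 8354 ± 40.9 to 12584 ± 663 and the glucokinase gene GLK1 from 10032 ± 239 to 13526 ± 1223. PGM2, the main phosphoglucomutase gene, rose from 2615 ± 180 to 3233 ± 52.2, but did not pass without WT 1 (limma adjusted p = 0.0663). HXK2, the hexokinase gene favoured on glucose, fell from 10204 ± 109 to 8224 ± 138, and did not pass without WT 2 (limma adjusted p = 0.0559).

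Trehalose, the other storage carbohydrate of yeast, is made from the same UDP-glucose. All 7 of its genes lie off chromosome XI, and 6 rose, with a median log2 fold change of 0.31, beside 18.5% higher among all genes off this chromosome. TSL1 rose by 0.78 ± 0.07 and TPS2 by 0.62 ± 0.07 on the log2 scale, beyond GSY2 and GPH1 in size. With WT 1 or WT 2 left out, NTH2 and TPS1 no longer passed (limma adjusted p = 0.0508 and 0.0640 for NTH2, and 0.110 and 0.0553 for TPS1), which leaves 4.

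Of the genes of the kinases that act on glycogen synthesis, those of the Snf1 pathway, which promotes storage, showed 4 of 10 higher and 1 lower, with a median log2 fold change of 0.01. Off chromosome XI, 3 of 9 were higher and 1 lower, with a median of -0.07, beside 18.5% and 22.6% of all such genes. SNF1, the kinase gene, rose by 0.34 ± 0.07 and SAK1, a kinase that activates Snf1, by 0.37 ± 0.07. ELM1, another such kinase, rose by 1.03 ± 0.09 and lies on chromosome XI. REG1, a Glc7 subunit that acts on Snf1, rose by 0.25 ± 0.07 but did not pass without WT 2 or 9Myc-Swd2 1 (limma adjusted p = 0.180 and 0.0532). SNF4, the activating subunit, fell by 0.20 ± 0.08 by limma-trend (adjusted p = 0.0467), a call lost with any 1 library left out (limma adjusted p from 0.0561 to 0.243) and not made, at an adjusted p of 0.193, by the authors' deposited table.

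In the Ras and protein kinase A pathway with Rim15, Msn2 and Msn4, 9 of 18 genes rose and 2 fell, with a median log2 fold change of 0.20. Off chromosome XI these were 7 and 2 of 16, with a median of 0.13, beside the same 18.5% and 22.6%. MSN4, a transcription factor gene of the stress response, rose by 1.03 ± 0.07, and TPK3, a catalytic subunit gene of protein kinase A, by 0.77 ± 0.08; both lie on chromosome XI. YAK1, a kinase that acts against protein kinase A, rose from 1502 ± 2.02 to 2275 ± 121. SCH9, a kinase of nutrient signalling, rose from 681 ± 47.0 to 1022 ± 92.0. CYR1, the adenylate cyclase gene, rose by 0.41 ± 0.07 and IRA1, an inhibitor of Ras, by 0.43 ± 0.08, so that genes acting for and against the kinase both rose.

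Genes repressed by glucose mostly did not pass. Of 12 such genes, 2 rose, 1 fell and 9 did not pass, with a median log2 fold change of 0.00. Over all genes tested, 22.3% rose and 21.4% fell. Those that rose were JEN1 (0.72 ± 0.08), a lactate transporter gene, and PCK1 (0.53 ± 0.11), a gene of gluconeogenesis, both on chromosome XI. Off it, 0 of 10 rose and 1 fell, with a median of -0.03, beside 18.5% and 22.6% of all genes off this chromosome. SUC2, the invertase gene, fell from 1053 ± 9.13 to 762 ± 35.7. The 12 genes summed to 7169.8 and 6874 normalized read counts in WT and 6825 and 7049 in 9Myc-Swd2, so the groups overlapped. Whether glucose in the medium differed was not tested.

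**Figure D4:**
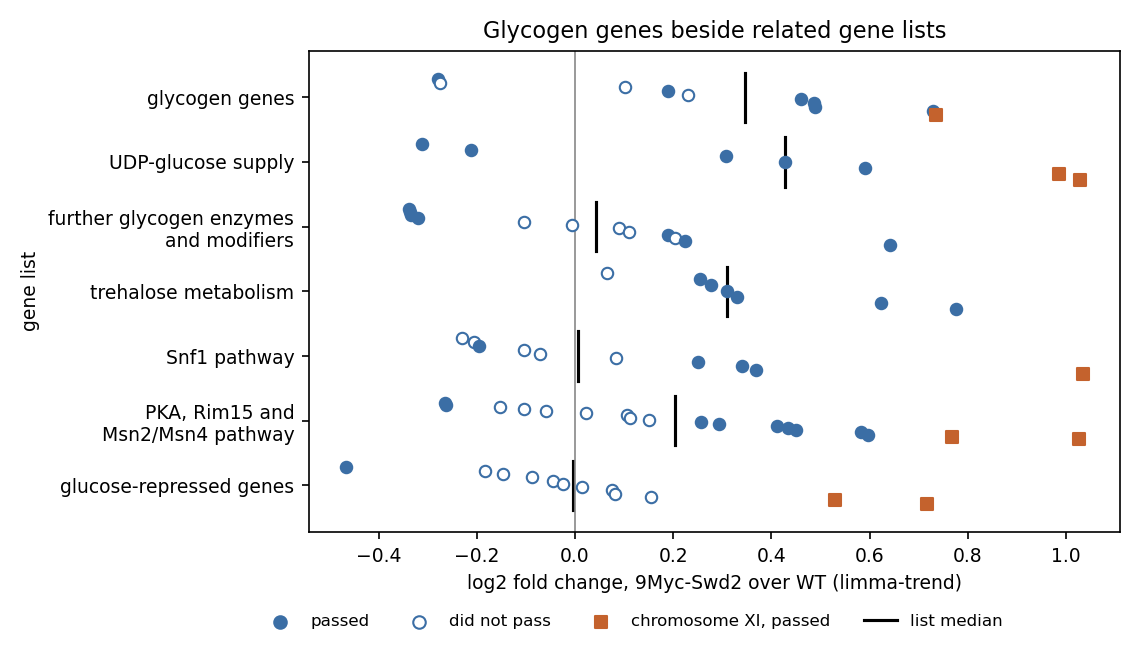
Log2 fold change (limma-trend, 9Myc-Swd2 over WT) of every gene in the glycogen list and in 6 related lists; filled symbols passed the threshold, squares are chromosome XI genes and black lines are list medians. The medians of the glycogen genes, UDP-glucose supply and trehalose lists are 0.35, 0.43 and 0.31, and that of the glucose-repressed genes is 0.00.

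Of 9 markers of mating type, 4 passed and 5 did not, a share near the 43.7% of all genes. The 5 a-cell markers summed to 902 and 741 normalized read counts in WT and 1172 and 1197 in 9Myc-Swd2. Most of that difference was STE6, a chromosome XI gene, at 510 and 441 in WT and 765 and 796 in 9Myc-Swd2. Off chromosome XI 1 of the 4 a-cell markers rose, beside 18.5% of all genes off this chromosome. It was MFA1, at 19.0 and 14.6 in WT and 55.3 and 47.4 in 9Myc-Swd2, and MFA2, STE2 and BAR1 did not pass. The 4 alpha-cell markers summed to 11212 and 11805 in WT and 10522 and 9539.5 in 9Myc-Swd2. Of these, MF(ALPHA)2 and SAG1 fell, and MF(ALPHA)1 and STE3 did not pass. Off chromosome XI this makes 2 of 3 lower, beside 22.6% of all genes off this chromosome. STE3 lies on chromosome XI, and its log2 fold change of -0.09 stood below the median of 0.90 there. In all 4 alpha-cell markers both tagged libraries lay below both WT libraries, as in 35.6% of the tested genes. The part of these differences in the glycogen results was not tested.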

How the data were processed

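RNA was sequenced from 2 WT and 2 9Myc-Swd2 libraries made with a directional kit, per the labels' protocols. The authors deposited 1 table whose library columns hold a signal, read counts divided by 1 size factor per library; this was found from the values, since 100% of those in each library are a whole number of times 1 step (tolerance 1e-06 steps). The table also holds the authors' log2 fold changes, their standard errors and Wald statistics (score), p-values and adjusted p-values, and log10 group means (not used), per the file headers. Per the submitters' processing notes, bcl2fastq 1.8.4 was used and the build was sacCer3; the aligner, the counter and the use of strand are not stated there, so reads of overlapping or antisense genes cannot be told apart.

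Limma 3.58.1 with a trend was run in R 4.3.3 on log2(value + 1) of genes with a mean of at least 1, with group as the only term. Fold changes on this scale understate those of low genes. The tests are two-sided, adjusted over all 6503 genes by Benjamini-Hochberg, with a threshold of 0.05. edgeR 4.0.16 and DESeq2 1.42.0 were run on the recovered reads as alternatives; edgeR called 1492 genes higher and 1387 lower. The limma script was tested on simulated data. Coding lengths and positions came from RefSeq R64 (6014 of 6697 identifiers matched). Members and lists were chosen with earlier results of these data known, so their counts are descriptions and no list was tested. Named were all members, SWD2, at most 6 genes per list with the smallest p, and the 5 genes with the nearest profile; the mating type markers named with a call were chosen after their values were seen. Wilson intervals are at 95%.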

Additional observations from a re-analysis of the deposited data

How the results depend on the processing

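No member changed sign under any of the 16 alternatives run, and GLG1, GSY2, GPH1, GDB1 and GAC1 passed in each, with GSY1 and PIG1 failing in each. GLC3 and PIG2 lost their calls in 10 and 7 of them, and GLG2 passed in 3 (scaled to total reads, adjusted p = 0.0268; replicate block, 0.0425; without 9Myc-Swd2 2, 0.0316). The replicate block gave 2 members lower in place of 1. The labels name no culture or batch shared by a replicate number, and whether the numbers pair the samples is not known. Deviations from the group mean correlated at 0.17 over 5860 genes between the libraries numbered 1. Those of the libraries numbered 2 are their mirror image, so they add no second comparison. The members' median log2 fold change was 0.29 when scaled to total reads and 0.30 to 0.38 with 1 library left out. Members lower were 2 when scaled to total reads, 0 with no filter, without a trend, with DESeq2 and in the authors' deposited table, and 0 to 1 with 1 library left out (0 without WT 1 or WT 2). Over all genes, no filter gave 950 higher and 847 lower against 1448 and 1393, limma without a trend 882 lower, and leaving out 1 library 780 (without WT 2) to 1440 lower. UDP-glucose genes lower were 1 with no filter, without a trend and at an adjusted p under 0.01 (main value 2), and 0 to 2 with 1 library left out (0 without WT 2, and 1 without WT 1 or 9Myc-Swd2 1). Modifiers higher (3) were 1 with quantile normalization, total scaling, no filter, no trend, DESeq2, the deposited table and the 0.01 threshold, and 1 to 3 with 1 library left out (1 without WT 1 or WT 2), when 2 (without WT 1) to 5 were lower (4). Snf1 genes lower (1) were 2 with quantile normalization and the 5 CPM filter, 3 with total scaling and with the replicate block, 0 with size factors without chromosome XI, no trend, DESeq2, the deposited table and the 0.01 threshold, and 2 without 9Myc-Swd2 1 and 0 without any other single library. Protein kinase A pathway genes higher (9) were 5 without a trend, and those lower (2) were 1 with no filter and no trend, 0 with DESeq2, the deposited table and 0.01, and 0 (without WT 1) to 2 with 1 library left out, 1 without WT 2. Glucose-repressed genes lower (1) were 2 with quantile normalization, total scaling and the replicate block, and 1 to 2 with 1 library left out (2 without 9Myc-Swd2 2). The number of members with AGGGG was 4 in the planned window and 7 within 500 bases. The cause of these shifts was not tested. GLG2 and PIG1, with the fewest reads, had the widest standard errors, which limits what could be called at this depth.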

Other observations

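The profile of the 9 members off chromosome XI, as their mean log2 value in each library after centring, was -0.13 and -0.11 in the WT libraries and 0.11 and 0.13 in the 9Myc-Swd2 libraries. Of 5850 other genes of at least 5 CPM, the 5 with the smallest Euclidean distance to this profile over the 4 libraries were MCH1, PFK1, PRM3, UTP10 and YBL029W, at distances of 0.0113 to 0.0195. The profile is a mean over 5 members that rose, 1 that fell and 3 that did not pass, so it need not resemble any single member. Of the 5 nearest genes, PFK1 encodes a phosphofructokinase subunit of glycolysis, and whether the 5 share a role was not tested. These genes were part of the same fit as all others. They were chosen for this profile, so their fold changes are not independent evidence of a difference.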
